A study of Mus musculus with 6 samples.

Results

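The triad genes of excitation-contraction coupling were followed in mouse gastrocnemius, the large muscle of the calf, from the last days before birth to adulthood. They were 10 genes chosen by symbol (Ryr1, Ryr3, Cacna1s, Cacnb1, Cacng1, Cacna2d1, Stac3, Jph1, Jph2 and Trdn) out of 23367 gene entries, and all 10 were among the 16882 genes that passed the filter on low counts. The mice were wild type FVB, and their polyadenylated RNA gave 6 libraries: E18.5 (RNA pooled from mice of both sexes), PN2 (pooled males), PN14 (replicates 1 and 2, each from 1 male), PN28 (1 male) and adult at 22 weeks (1 male). Only PN14 has replicates, so a difference between any other stages rests on 1 library each. The labels name no transgene or treatment.

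In skeletal muscle the triad is the contact between a transverse tubule, an infolding of the surface membrane, and a pair of sacs of the sarcoplasmic reticulum. The voltage sensor in the tubule is an L-type calcium channel built from the Cacna1s pore subunit and the beta, gamma and alpha2-delta subunits encoded by Cacnb1, Cacng1 and Cacna2d1. It opens the ryanodine receptor of the reticulum through mechanical coupling that needs the adaptor Stac3. Ryr1 encodes the release channel of adult skeletal muscle, and Ryr3 a related channel known from fetal and neonatal muscle. The junctophilins Jph1 and Jph2 hold the membranes together, and triadin (Trdn) anchors the receptor to calsequestrin inside the reticulum.

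Each library held between 125402932 and 157868359 counts on genes, and the members had between 248 and 887258 counts in a library, with Ryr3 as the only member under 14659. Levels are given as FPKM (fragments per kilobase of gene model, divided by library size), with no further scaling between libraries. Log2 fold changes are from edgeR with TMM scaling. Library size alone moved the median change of the genes tested, in log2, to -0.66 from PN2 to PN14 and to -1.08 from E18.5 to adult, against -0.012 and -0.054 with TMM, so a rise in FPKM is smaller than the rise in the test. The 8 myofibre markers, led by Acta1, Mylpf and Tnnt3, summed to between 33193 FPKM at E18.5 and 119883 at PN28, and their median log2 fold change from E18.5 to adult was 2.16, with no member of the list passing the test, while 5 rose and 1 fell with library size alone. Of the 7 fibroblast markers 6 fell over the same span (sum 7090 FPKM at E18.5, 519 in the adult), and all 3 satellite cell markers fell (sum 59.6 and 6.82 FPKM). The cardiac markers summed to 341 and 16.9 FPKM, of which Tnnt2, which developing skeletal muscle also uses, made up 314 and 3.06. Myh6 made up 25.5 and 13.05, and had 51.3 and 45.7 FPKM in the PN14 replicates. Tnni3, Myl7 and Nppa were at most 2.42, 0.33 and 0.12 FPKM. In a whole muscle, a change in the share of fibres and a change of the RNA in each fibre cannot be told apart.

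The PN14 mice differed. With TMM scaling, the 9 members other than Ryr3 were lower in replicate 2 than in replicate 1, and Ryr3 was higher, so that replicate 2 lay nearer to PN2 for every member. The same held across the transcriptome: of the 2151 genes called lower at PN28 than at PN2, 1886 (87.7%) were higher in replicate 2, and of the 2415 called higher at PN28 only 276 (11.4%) were, against 51.3% of all genes tested. The part of these differences in the results was not tested, and values without each replicate are given where they matter.

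Promoters are shown for 3 members that rose from E18.5 to adult. They were picked as the start regions of the receptor, the voltage sensor and the more abundant junctophilin. They are the 250 bases before a RefSeq transcript start (build GRCm38.p6, which differs from the mm9 build of the expression table), 5′ to 3′ on the gene's strand. RefSeq promoter entries were found for 5 of the 10 members (Cacna1s, Cacna2d1, Cacnb1, Jph2 and Ryr1). Ryr1 lies on the minus strand at chr7:29125152-29125401, Cacna1s on the plus strand at chr1:136052561-136052810 and Jph2, which has a second listed start, on the minus strand at chr2:163397994-163398243. Capitals mark the E-box CANNTG, the motif bound by myogenic helix-loop-helix factors, and the MCAT element CATTCCT, searched on both strands.
Ryr1: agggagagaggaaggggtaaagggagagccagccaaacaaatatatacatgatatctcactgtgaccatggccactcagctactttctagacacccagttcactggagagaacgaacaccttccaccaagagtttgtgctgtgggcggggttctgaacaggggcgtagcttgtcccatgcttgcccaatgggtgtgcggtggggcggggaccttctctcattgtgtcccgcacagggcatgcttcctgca
Cacna1s: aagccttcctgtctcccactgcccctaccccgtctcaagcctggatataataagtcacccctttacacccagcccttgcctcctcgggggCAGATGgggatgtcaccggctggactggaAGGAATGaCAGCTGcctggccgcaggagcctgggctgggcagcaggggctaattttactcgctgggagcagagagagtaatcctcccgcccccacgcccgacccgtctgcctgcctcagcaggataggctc
Jph2: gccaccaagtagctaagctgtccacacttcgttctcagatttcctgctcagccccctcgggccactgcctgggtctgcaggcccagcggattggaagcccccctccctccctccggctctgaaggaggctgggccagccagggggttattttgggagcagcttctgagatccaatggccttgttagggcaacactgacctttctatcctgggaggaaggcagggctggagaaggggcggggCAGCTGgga

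The Cacna1s window held 2 E-boxes and 1 MCAT element, which is read here on the opposite strand, the Jph2 window 1 E-box, and the Ryr1 window 0 of either. The E-box matches include the form CAGCTG once in Cacna1s and once in Jph2. Of all 32851 windows of this length, 66.2% held an E-box, 13.0% the form CAGCTG and 4.51% an MCAT element. A match is a run of letters only. Binding was not measured.

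The ryanodine receptors moved in opposite directions. Ryr1 (chromosome 7 of mm9, 29788359 to 29910170, minus strand, 106 exons in the GENCODE M1 transcript) had 55.8 FPKM before birth (E18.5) and 79.4 at PN2, then 201 and 134 in the PN14 mice (replicates 1 and 2), 250 at PN28, with 405 in adult muscle. Each later stage was above the one before, with the PN14 replicates on both sides of their mean of 167 ± 47.4 (SD, n = 2 mice), and both above PN2 and below PN28. Ryr3 (chromosome 2, 112471512 to 113057253, minus strand) had 6.29 FPKM before birth (E18.5) and 7.93 at PN2, then 0.13 and 0.95 in the PN14 mice (replicates 1 and 2), 0.12 at PN28, with 0.13 in adult muscle. In counts this was 15292, 19145, 248, 2193, 281 and 281 fragments. The PN14 values of Ryr3 lay below both perinatal libraries, but those replicates differed 7.31-fold from each other in FPKM, and with TMM scaling the gap was wider than in 99.9% of the 13551 genes with a mean of at least 0.5 CPM in the pair.

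From E18.5 to adult both receptors were called, Ryr1 with a log2 fold change at 3.89 (standard error 0.90 and adjusted p = 0.0141) and Ryr3 with -4.59 (standard error 1.19 and adjusted p = 0.0204, the quasi-likelihood test of edgeR, Benjamini-Hochberg adjusted over all genes tested). From PN2 to PN14 Ryr3 was called, at -3.31 (standard error 0.85 and adjusted p = 0.0341 from edgeR). Ryr1 had 1.77 over the same interval and did not pass (standard error 0.76 and adjusted p = 0.123 from edgeR), although the Wald test of DESeq2 and the exact test of edgeR called it. The calls of Ryr3 were lost with DESeq2's Wald test, where its adjusted p was 0.160 from PN2 to PN14 and 0.0564 from E18.5 to adult. With replicate 2 alone, the log2 fold change of Ryr3 from PN2 to PN14 was -2.54, and with replicate 1 alone it was -5.16.

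Because a ratio within a library does not depend on the scaling between libraries, Ryr1 was also set against Ryr3 in each library. The FPKM ratio of Ryr1 to Ryr3 was 8.87 at E18.5 and 10.01 at PN2, then 1545 and 141 in the PN14 mice (replicates 1 and 2), 2083 at PN28, with 3115 in adult muscle. The E18.5 and PN2 ratios were close to each other, both PN14 ratios were at least an order above them, and the later ratios were above both PN14 replicates. The adult ratio was 351 times that at E18.5, and the PN28 ratio 208 times that at PN2. The PN14 mean of 843 has an SD of 993 (n = 2 mice). At 1 library a stage the ratio was not tested.

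As a share of the fragments on both genes, Ryr3 took 10.2% at E18.5 (95% exact binomial interval 10.01% to 10.32%) and 9.11% at PN2 (8.99% to 9.23%). At PN14 it took 0.0640% in replicate 1 (0.0563% to 0.0725%) and 0.704% in replicate 2 (0.675% to 0.734%), at PN28 0.0493% (0.0437% to 0.0554%) and in the adult 0.0317% (0.0281% to 0.0356%). The intervals cover counting error only, and the gap between the PN14 mice exceeds it. Ryr3 thus had 10.2% and 9.11% of the fragments on both genes in the perinatal libraries and under 1% in every later one.

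**Figure D1:**
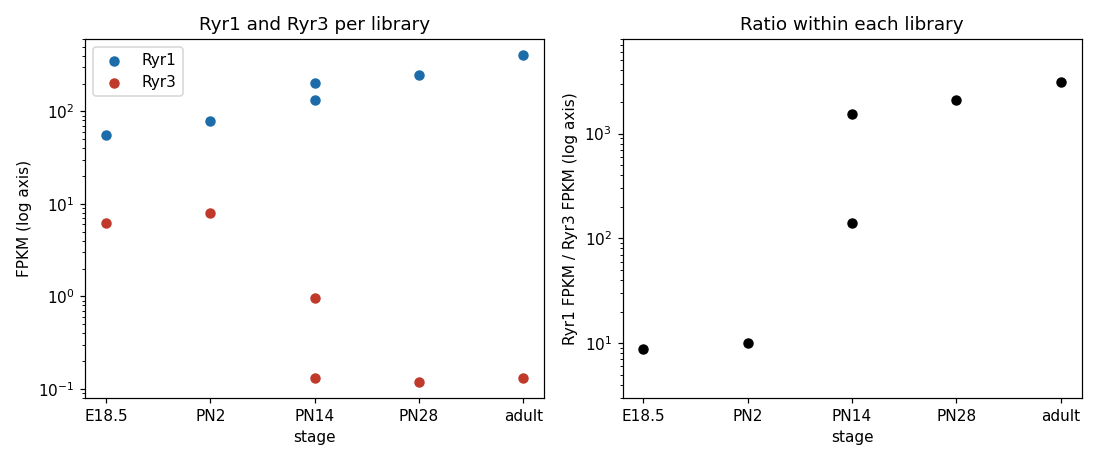
FPKM of Ryr1 and Ryr3 (left) and their ratio (right) by stage, on log axes, with 1 point per library and 2 points at PN14. Ryr1 climbs from 55.8 to 405 FPKM while Ryr3 drops from 7.93 at PN2 to 0.12 at PN28, and the PN14 ratios of 1545 and 141 lie between the perinatal and the later ratios.

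The voltage sensor rose, but its subunits did so to different degrees. Cacna1s, the pore and voltage-sensing subunit (chromosome 1, 137949327 to 138016399, plus strand), had 35.7 FPKM before birth (E18.5) and 68.4 at PN2, then 136 and 112 in the PN14 mice (replicates 1 and 2), 154 at PN28, with 193 in adult muscle. The values climbed at every stage, and both PN14 replicates stood between PN2 and PN28. It was called from E18.5 to adult with a log2 fold change at 3.46 (standard error 0.54 and adjusted p = 0.00383 from edgeR). From PN2 to PN14 it had 1.54 and passed narrowly (standard error 0.45 and adjusted p = 0.0492 from edgeR), and this call was lost with DESeq2's size factors (adjusted p = 0.0533), with a mean of at least 1 CPM as the filter (0.0555) and with library size alone, where the log2 fold change was 0.86.

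Cacnb1, the cytosolic beta subunit that carries the channel to the tubule (chromosome 11, 97862822 to 97884348, minus strand), had 82.9 FPKM before birth (E18.5) and 103 at PN2, then 160 and 165 in the PN14 mice (replicates 1 and 2), 168 at PN28, with 112 in adult muscle. It stood highest from PN14 to PN28, and its adult level lay between those of PN2 and PN14. Its log2 fold change was 1.16 from PN2 to PN14 and 1.26 from E18.5 to adult, called both times (standard errors 0.27 and 0.30, at adjusted p = 0.0260 and 0.0155 from edgeR). With library size alone these became 0.50 and 0.23 and were not called. Its log2 difference from PN28 to adult, -0.45, did not pass (adjusted p = 0.476 from edgeR).

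Cacng1, the gamma subunit particular to skeletal muscle channels (chromosome 11, 107564532 to 107577836, minus strand), had 164 FPKM before birth (E18.5) and 248 at PN2, then 262 and 245 in the PN14 mice (replicates 1 and 2), 261 at PN28, with 338 in adult muscle. In FPKM the PN2, PN14 and PN28 libraries could not be separated, since PN2 and PN28 lay inside the range of the PN14 pair, and E18.5 and the adult lay outside it. Its log2 fold change from PN2 to PN14 was 0.70 and was not called (standard error 0.31 and adjusted p = 0.130 from edgeR), while that from E18.5 to adult was 2.06 and was called (standard error 0.36 and adjusted p = 0.00543 from edgeR).

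Cacna2d1, the extracellular alpha2-delta subunit (chromosome 5, 15440509 to 15880329, plus strand), had 36.7 FPKM before birth (E18.5) and 43.4 at PN2, then 53.9 and 45.7 in the PN14 mice (replicates 1 and 2), 66.9 at PN28, with 61.5 in adult muscle. The PN14 replicates overlapped no other stage, though replicate 2 lay close to PN2. It was called from E18.5 to adult at a log2 fold change of 1.78 (standard error 0.41 and adjusted p = 0.0140 from edgeR), not from PN2 to PN14, where it had 0.88 (adjusted p = 0.111 from edgeR). With library size alone the E18.5 to adult value was 0.75 and was not called.

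Stac3, the adaptor that links the sensor to Ryr1 (chromosome 10, 126938742 to 126945879, plus strand), had 53.4 FPKM before birth (E18.5) and 67.5 at PN2, then 179 and 149 in the PN14 mice (replicates 1 and 2), 157 at PN28, with 145 in adult muscle. The adult library stood just below the PN14 pair, and the PN28 library fell within the range of the PN14 pair. The log2 fold change was 1.96 from PN2 to PN14 (standard error 0.34 and adjusted p = 0.0126 from edgeR), the lowest adjusted p of the members in that interval, and 0.15 from PN14 to PN28, which did not pass.

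Set against Cacna1s in the same library, per length, the other subunits had lower ratios at later stages. Cacng1 had 4.61 times the FPKM of Cacna1s at E18.5, then 3.62 at PN2 and 2.06 ± 0.193 at PN14 (SD, n = 2 mice), 1.69 at PN28, with 1.75 in adult muscle. Cacnb1 had 2.32 times at E18.5, then 1.51 at PN2 and 1.33 ± 0.216 at PN14 (SD, n = 2 mice), 1.09 at PN28, with 0.58 in adult muscle. Cacna2d1 went from 1.03 at E18.5 to 0.63 at PN2 and 0.402 ± 0.00996 at PN14 (SD, n = 2 mice), 0.43 at PN28, with 0.32 in adult muscle. For each of these subunits the E18.5 ratio was the highest of the 6 libraries and lay outside the PN14 pair. Stac3 also had its highest ratio at E18.5, but its PN2 ratio lay below both PN14 replicates. It had 1.5 at E18.5, then 0.99 at PN2 and 1.32 ± 0.0190 at PN14 (SD, n = 2 mice), 1.02 at PN28, with 0.75 in adult muscle. Ryr1 had 1.56 times the FPKM of Cacna1s at E18.5 and 1.16 at PN2, then 1.47 and 1.20 in the PN14 mice (replicates 1 and 2), 1.62 at PN28, with 2.10 in adult muscle. These ratios were not tested, and ratios of RNA are not ratios of protein.

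**Figure D2:**
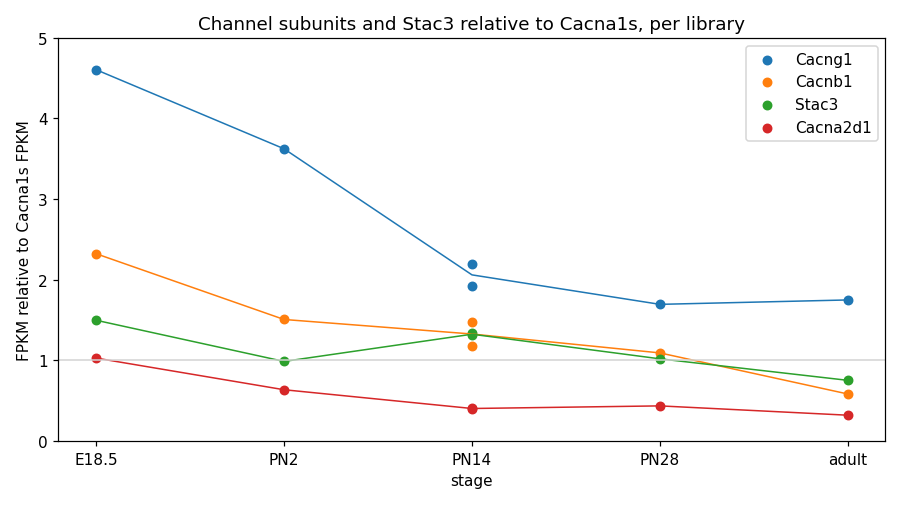
FPKM of Cacng1, Cacnb1, Stac3 and Cacna2d1 divided by the FPKM of Cacna1s in the same library, by stage, with 1 point per library and a line through the stage means. Cacng1 goes from 4.61 to 1.75, Cacnb1 from 2.32 to 0.58, Cacna2d1 from 1.03 to 0.32 and Stac3 from 1.5 to 0.75, with Stac3 lower at PN2 than at PN14.

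Both junctophilins rose. Jph1, the form typical of skeletal muscle (chromosome 1, 16987545 to 17087879, minus strand), had 23.1 FPKM before birth (E18.5) and 38.3 at PN2, then 75.0 and 70.5 in the PN14 mice (replicates 1 and 2), 81.7 at PN28, with 101 in adult muscle. Jph2, which is also the junctophilin of the heart (chromosome 2, 163161978 to 163223729, minus strand), had 56.6 FPKM before birth (E18.5) and 69.5 at PN2, then 217 and 165 in the PN14 mice (replicates 1 and 2), 240 at PN28, with 266 in adult muscle. No value of a later stage fell below those of an earlier one for either gene. Both were called from PN2 to PN14, Jph1 at 1.59 and Jph2 at 2.14 (standard errors 0.33 and 0.49, at adjusted p = 0.0194 and 0.0249 from edgeR), and from E18.5 to adult, at 3.14 and 3.25 (standard errors 0.39 and 0.55, at adjusted p = 0.00211 and 0.00511 from edgeR). Jph1 was at 0.93 from PN2 to PN14 with library size alone and was then not called.

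The level of Jph1 relative to Jph2 was 0.41 at E18.5, then 0.55 at PN2, next 0.35 and 0.43 in the PN14 replicates, 0.34 at PN28, with 0.38 in adult muscle. Jph2 was the higher of the pair, per length, in all 6 libraries. The PN2 ratio was the only one that stood clear of the PN14 pair by more than its SD of 0.0581 (n = 2 mice).

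Trdn, the triadin gene (chromosome 10, 32803289 to 33196515, plus strand), rose most of the members. It had 34.6 FPKM before birth (E18.5) and 77.2 at PN2, then 264 and 204 in the PN14 mice (replicates 1 and 2), 294 at PN28, with 367 in adult muscle. Each stage was above the one before, with no overlap with the PN14 pair. Its log2 fold change was 2.28 from PN2 to PN14 (standard error 0.53 and adjusted p = 0.0257 from edgeR) and 4.43 from E18.5 to adult (standard error 0.63 and adjusted p = 0.00290 from edgeR), the largest rise of the 10 genes with TMM and, at 10.6-fold in FPKM, without it. Relative to Ryr1 in the same library, Trdn had 0.62 times the FPKM before birth (E18.5) and 0.97 at PN2, then 1.31 and 1.52 in the PN14 mice (replicates 1 and 2), 1.18 at PN28, with 0.91 in adult muscle. Trdn thus exceeded Ryr1 per length at PN14 and PN28, and was below it at E18.5, PN2 and in the adult.

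**Figure D3:**
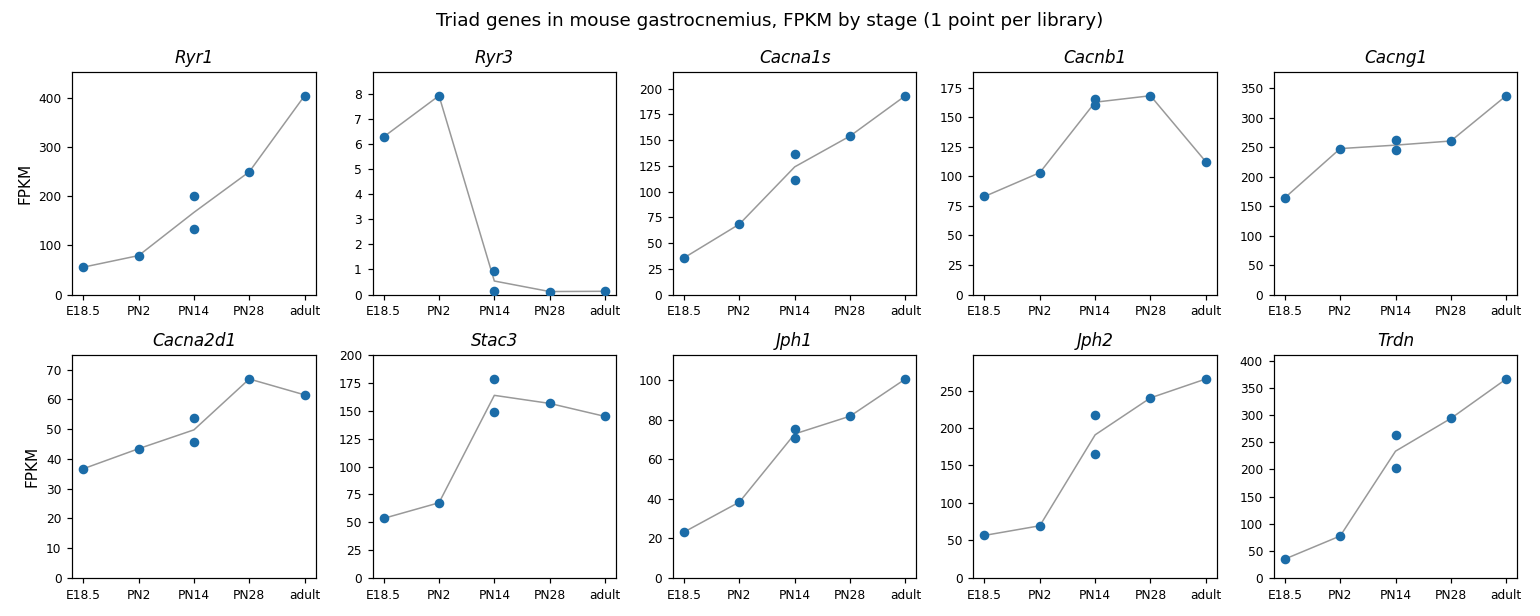
FPKM of the 10 members by stage, with 1 point per library and a grey line through the stage means, each panel on a linear axis from 0. In 6 panels (Ryr1, Cacna1s, Cacng1, Jph1, Jph2 and Trdn) the adult library is highest, Cacnb1 and Cacna2d1 are highest at PN28, Stac3 in PN14 replicate 1 and Ryr3 at PN2.

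The make-up of the set changed with age. Of the FPKM summed over the 10 genes, 549 at E18.5 and 1988 in the adult, Cacng1 held 29.9% at E18.5 and 30.9% at PN2, against 16.9% and 19.0% at PN14, 15.6% at PN28, with 17.0% in adult muscle. Ryr1 held 10.2% at E18.5, 9.89% at PN2, 13.0% and 10.4% at PN14, 14.9% at PN28, with 20.4% in adult muscle. Trdn went from 6.30% to 18.5% and Cacnb1 from 15.1% to 5.65% between E18.5 and adult. Cacng1 was thus the highest member per length at E18.5 and PN2, and Ryr1 in the adult.

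Counted as a set, the members had more calls from PN2 to PN14 than in any other interval between neighbouring stages. These intervals differ in length, and no value was divided by days. Of the 10 genes, 7 were called over that interval, 6 rising (Cacna1s, Cacnb1, Stac3, Jph1, Jph2 and Trdn) and 1 falling (Ryr3), against 23.0% of all genes tested (11.8% higher and 11.2% lower). Their median log2 fold change was 1.57, beside -0.012 over all genes tested. The 8 myofibre markers had a median of 1.59 over this interval (8 higher, 0 called) and 2.16 from E18.5 to adult. From E18.5 to adult all 10 members were called, 9 rising and Ryr3 falling, against 44.9% of all genes (21.4% higher, 23.6% lower), with a median of 2.81 beside -0.054. From PN2 to PN28 there were 8 calls, 7 rising and 1 falling, against 27.0% of all genes (14.3% higher, 12.7% lower), with Ryr1 and Cacng1 as the exceptions (adjusted p = 0.0651 and 0.0806 from edgeR). With PN2 in place of the mixed-sex E18.5 library, an alternative chosen after seeing the data, 9 members were called against the adult, 8 rising, where 40.0% of all genes were called (19.1% higher, 20.9% lower), and Cacnb1 fell short at a log2 fold change of 0.96. With library size alone, 5 members were called from PN2 to PN14 and 8 from E18.5 to adult, where 34.5% and 53.6% of all genes were, and edgeR's exact test called 8 from PN2 to PN14, where it called 27.6% of all genes. These comparisons share libraries and do not support one another.

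The other intervals held no call among the members with edgeR's quasi-likelihood test. From E18.5 to PN2 all 10 genes were higher at PN2, 0 were called and 0 had an unadjusted p under 0.05, against 0.0296% of all genes called. Trdn had the largest difference there, at 1.16 (standard error 0.55 and adjusted p = 0.835 from edgeR). From PN14 to PN28 9 of 10 were higher and 0 were called, against 0.0178% of all genes, and from PN28 to adult 9 were higher and 0 were called, against 0.521%. The unadjusted p was under 0.05 for 0 members in both, and 0 were called in these 3 intervals by either DESeq2 (Wald test) or the exact test of edgeR. The Wald test called 0.977%, 0.800% and 4.79% of all genes there, and the exact test 2.05%, 1.43% and 6.79%. With library size alone 1 member, Ryr3, was called lower from PN14 to PN28, where 1.55% of all genes were called.

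**Figure D4:**
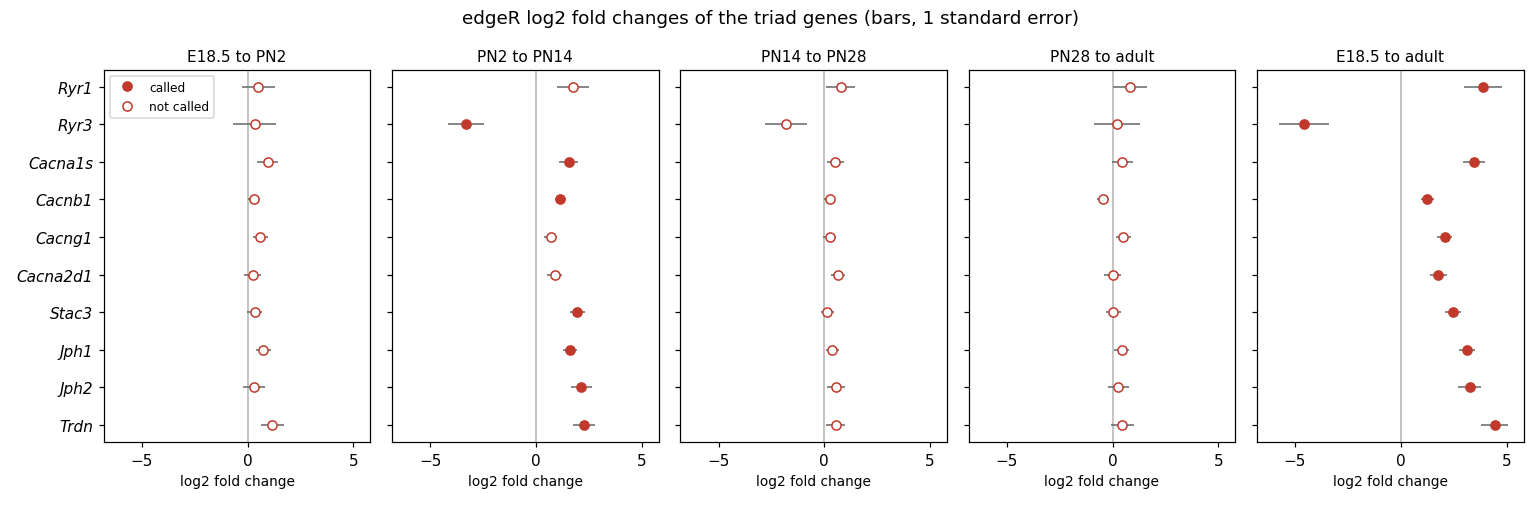
Log2 fold changes of the 10 members from edgeR (horizontal axis) for the 4 consecutive intervals and for E18.5 to adult, with bars of 1 standard error, filled points called and open points not. Filled points appear from PN2 to PN14 (7 of 10) and from E18.5 to adult (10 of 10), and Ryr3 lies left of 0 in both.

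The order of the changes was described by the share of each gene's E18.5 to adult change, on log2 of the TMM-normalized CPM plus 1, that was reached at each stage. At PN2 no member had passed 50%, the largest shares being 28.7% for Cacng1, 27.0% for Cacna1s and 26.0% for Trdn, and Ryr3 stood at -7.94% since it was higher at PN2 than at E18.5. With library size alone this did not hold for Cacnb1 and Cacng1, which stood at 129.6% and 57.1% at PN2, where Cacna1s stood at 38.4%. The whole log2 change of Cacnb1 under that scaling was only 0.23, so its share there rests on a small divisor. At PN14 all 10 had passed 50%. Cacnb1 stood at 116% and Stac3 at 92.1%, then came Ryr3 at 77.5%, Trdn at 76.7%, Jph2 at 73.7%, Jph1 at 73.4% and Cacna1s at 70.7%, followed by Cacng1 at 62.2%, Cacna2d1 at 61.9% and Ryr1 at 57.0%. The PN14 mice set the limit of this order. Ryr1 stood at 67.9% in replicate 1 and 46.1% in replicate 2, and Trdn at 83.9% and 69.6%, so that most neighbours in the order differ by less than the pair. Replicate 1 alone left all 10 past 50%, and replicate 2 alone left 8, without Ryr1 and Cacna2d1 (47.9%).

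The steps were not divided by the length of their interval, which differs between them. With TMM scaling the step from PN2 to PN14 was the largest of the 4 for all 10 members. With library size alone that held for 6 (Ryr1, Ryr3, Stac3, Jph1, Jph2 and Trdn), while the steps of Cacng1 on the log2 scale were 0.59 from E18.5 to PN2 and 0.034 from PN2 to PN14, and Cacnb1 had its largest step, of -0.59, from PN28 to adult. At PN28 Stac3 and Cacna2d1 stood at 99.0%, while Ryr1 stood at 78.5% and Cacng1 at 75.3%. These were the lowest shares of the 10 members at PN28, and the log2 differences of Ryr1 and Cacng1 from PN28 to adult, 0.83 and 0.51, did not pass the test.

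**Figure D5:**
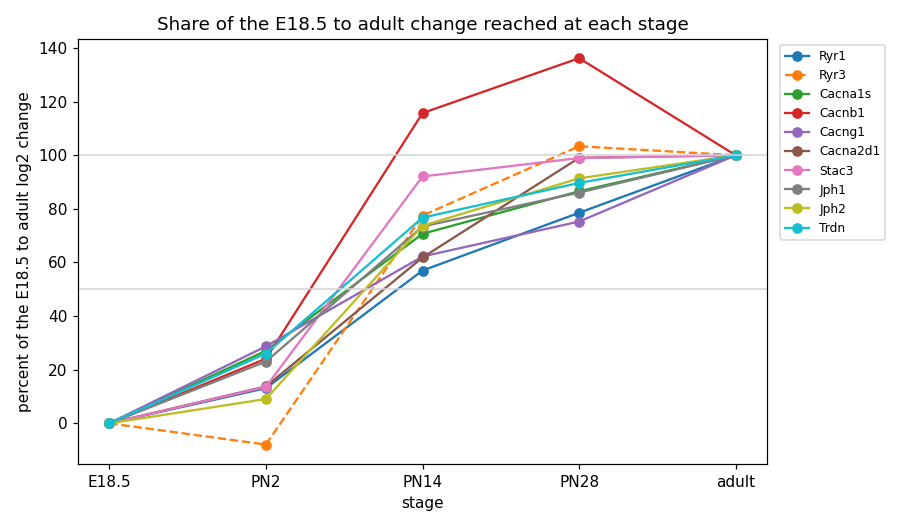
Percent of the E18.5 to adult log2 change (TMM-normalized CPM plus 1) reached at each stage, 1 line per gene, with PN14 as the mean of its replicates and Ryr3, which fell, as a dashed line. All lines lie below 50% at PN2 (with library size alone, Cacnb1 and Cacng1 would not) and above it at PN14, Cacnb1 passes 100% at PN14 and PN28, and Ryr1 is lowest at PN14 with 57.0%.

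Partners of the triad proteins were followed as a list of 22 genes, all of them tested. From PN2 to PN14 8 rose and 1 fell, with a median log2 fold change of 1.06, and from E18.5 to adult 13 rose and 3 fell, with a median of 1.54. Of all genes tested, 11.8% were called higher and 11.2% lower in the first of these comparisons, and 21.4% and 23.6% in the second. Casq1, the calsequestrin of fast fibres, went from 382 FPKM at E18.5 to 1731 in the adult with a peak of 3604 in PN14 replicate 1, and was called from PN2 to PN14 at 3.28 (standard error 0.85 and adjusted p = 0.0346 from edgeR). Casq2, the cardiac and slow form, went the other way, from 612 FPKM at E18.5 to 417 at PN2, 53.3 and 75.4 at PN14, 27.4 at PN28 and 8.01 in adult muscle, at a log2 fold change of -2.05 from PN2 to PN14 (standard error 0.29 and adjusted p = 0.00763 from edgeR). Casq2 was thus the higher calsequestrin at E18.5 and the lower one from PN2 on.

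Atp2a1, the calcium pump of fast fibres, had 779 FPKM at E18.5 and 10409 in the adult, but a log2 fold change of 4.77 fell short of the threshold (standard error 1.86 and adjusted p = 0.0728 from edgeR). Tmem38a, a potassium channel of the reticulum membrane, had 231 and 710 FPKM at the same stages and rose by 2.65 on the log2 scale (standard error 0.55 and adjusted p = 0.00998 from edgeR). Srl, or sarcalumenin, had 345 and 409 FPKM at these stages and a log2 fold change of 1.27 that did not pass, and Bin1, which shapes the tubules, 424 and 324 FPKM with 0.63, not passing either and at -0.39 with library size alone. The partners that fell from E18.5 to adult were Casq2 at -5.23, the ryanodine receptor binding protein gene Fkbp1b at -1.54 and the caveolin gene Cav3 at -1.42 (adjusted p = 0.00123, 0.0261 and 0.00542 from edgeR).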

How the data were processed

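RNA-seq of polyadenylated RNA was analysed from the authors' gene table of 6 libraries. The authors aligned paired-end reads to mm9 with TopHat2 2.0.5 and used RSEM on RefSeq models to estimate gene counts (version not given in the sources used here). The deposited expected counts are whole numbers without normalization, and the deposited FPKM values, to 2 decimals, are scaled to gene length and library size. Of 23367 entries, 4 share a symbol with another. None of these is a member.

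Counts were analysed in R 4.3.3 with edgeR 4.0.16: filterByExpr by stage (16882 genes kept), TMM, 1 quasi-likelihood fit of 6 libraries with 5 stages as groups, and Benjamini-Hochberg adjustment over all genes tested. Calls needed an adjusted p below 0.05 together with a log2 change of 1 or more in either direction. The standard error is the log2 fold change divided by the root of F. Only the PN14 pair gave residual degrees of freedom (1), with a common biological coefficient of variation of 0.188, so the test assumes that other stages vary as PN14 does. The fit was also run on simulated counts with that common coefficient for all genes, read only from PN2 to PN14. Such a run does not cover genes whose spread differs from it.

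The members and lists were chosen with earlier results of these data known. All members are named. Of 22 partners and 21 paralogs, the 6 with the highest FPKM and those called against the direction of most calls in their list are named. Similarity of pattern is the root mean square difference of centred log2(CPM + 1). Positions are from GENCODE M1 (mm9) and promoters from RefSeq (GRCm38.p6). Alternatives were library size alone, DESeq2 1.42.0 (size factors or Wald test), edgeR's exact test, other filters and pseudocounts, and either PN14 replicate left out. Python 3.11.15, pandas 2.3.3, scipy 1.17.1 and matplotlib 3.10.9 were used. Splicing and protein were not analysed here.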

Additional observations from a re-analysis of the deposited data

How the results depend on the processing

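Of the 6 counts of called members, 5 stayed within 1.5 times under every alternative. The count from PN2 to PN14 (7) ranged from 5 with library size alone to 8 with edgeR's exact test, and that from E18.5 to adult (10) from 8 to 10. The count from PN14 to PN28 was 0 and became 1 with library size alone, where Ryr3 fell by 2.13 on the log2 scale. The signs that reversed were those of Stac3 from PN14 to PN28 (-0.065) and Stac3 and Cacna2d1 from PN28 to adult (-0.11 and -0.12) with library size alone, Cacna2d1 from PN28 to adult (-0.00031) with a mean of at least 1 CPM, and, without PN14 replicate 2, Stac3 (-0.090) and Ryr3 (0.037) from PN14 to PN28. Ryr3 had -1.81 in that interval with both replicates and -2.59 without replicate 1. The cause was not tested.

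The Ryr1 to Ryr3 ratio at PN14 was between 141 and 1545 with a replicate left out. With 0.1 FPKM added to both genes it was 1137 at PN28 and 1761 in the adult. Without a replicate, the PN14 ratios to Cacna1s lay between 1.17 and 1.48 for Cacnb1, 1.92 and 2.20 for Cacng1, 0.39 and 0.41 for Cacna2d1 and 1.31 and 1.34 for Stac3, and Jph1 to Jph2 between 0.35 and 0.43. Ratios of counts, which are not divided by length, are on another scale by construction. At E18.5, PN2, PN28 and in the adult, Jph1 to Jph2 was then 0.47, 0.63, 0.39 and 0.43. At E18.5, PN2, PN14, PN28 and in the adult, Cacnb1 to Cacna1s was 0.69, 0.44, 0.35, 0.28 and 0.15, Cacng1 to Cacna1s 0.86, 0.68, 0.38, 0.32 and 0.33, Cacna2d1 to Cacna1s 1.23, 0.76, 0.48, 0.52 and 0.38, and Stac3 to Cacna1s 0.42, 0.28, 0.37, 0.29 and 0.21. The number of members past 50% of their change at PN14 was 8 to 10 with a replicate left out. No paired analysis was possible because only PN14 has more than 1 library. Ryr3 after PN2 rests on 248 to 2193 counts, which limits its ratio.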

Other observations

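Paralogs of the members, followed as a list of 21 genes of which 17 were tested, were low in this muscle: 13 stayed under 1 FPKM in every library and 2 reached 10 FPKM. From E18.5 to adult 3 rose and 6 fell, with a median log2 fold change of -0.96, and from PN2 to PN14 1 rose and 4 fell. Of all genes tested, 44.9% and 23.0% were called in these comparisons, so the paralogs' counts lie near the background. Cacng6, a gamma subunit gene, had 21.1 FPKM at E18.5, 26.2 at PN2, then 35.8 and 29.5 at PN14, 36.4 at PN28, with 45.3 in adult muscle, and rose with a log2 fold change of 2.13 from E18.5 to adult (standard error 0.30, adjusted p = 0.00302 from edgeR). Cacnb3, a beta subunit gene, had 11.2 FPKM at E18.5, 13.5 at PN2 but 0.96 in the adult and fell over the same span, at -2.52 (standard error 0.22, adjusted p = 0.00125 from edgeR). Cacng6 and Cacnb3 were thus the only paralogs at 10 FPKM or more in any library, and they moved in opposite directions.

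Cacng7 went from 9.79 to 2.54 FPKM, Cacng4 from 1.35 to 0.12, the junctophilin Jph4 from 1.26 to 0.07 and Cacna1c, the pore subunit of the heart, from 1.22 to 0.32. Cacng4 and Jph4 were called from E18.5 to adult (-2.45 and -3.12), and Cacng7 and Cacna1c were not (-0.92 for each). Of the alpha2-delta genes, Cacna2d4 and Cacna2d3 rose against most calls of the list, with log2 fold changes of 8.46 and 1.90 from E18.5 to adult, at levels up to 1.17 and 0.50 FPKM. Ryr2, the receptor of the heart, named after its values were seen, was never above 0.13 FPKM.

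The genes whose course was most like that of Ryr1, among 6920 genes with at least 10 FPKM in a library, were Kbtbd12, Pde4dip and Ppip5k1, with root mean square differences of 0.095, 0.11 and 0.12 on the log2 scale over 6 libraries. Pde4dip had 105 FPKM at E18.5 and 616 in the adult. Among the members Jph2 and Cacna1s were nearest to Ryr1, at 0.28 and 0.29, but only in places 60 and 61 of this order. For Ryr3 the nearest genes were Gatm, Nov and Tecrl, at 0.34, 0.45 and 0.46. Gatm, the first enzyme of creatine synthesis, had 272 FPKM at E18.5, 255 at PN2, 10.1 and 44.3 at PN14, 8.76 at PN28, with 4.89 in adult muscle. It was chosen for its likeness to Ryr3 over these 6 libraries, so its gap between the PN14 replicates is no separate observation.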
